A study of Mus musculus with 8 samples.

Results

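Ankrd1 and 9 other genes that are known targets of YAP and the TEAD factors were compared, gene by gene, between Lats2-/- and Lats2+/+ mouse embryonic fibroblasts (MEFs). The other genes are Amotl1, Amotl2, F3, Axl, Dock5, Crim1, Fjx1, Arhgef17 and Gadd45b, and the list holds known targets from outside the CCN family (Ctgf, Cyr61 and relatives). Its members were found as the gene probes whose name in the scanner files is one of these symbols. They were 18 of the 41174 gene probes on the array, and all 18 were among the 22642 probes kept for testing, which name 14727 genes. In Lats2-/- MEFs, transcripts of Ankrd1 were 13.4-fold higher on average, those of F3 were 2.01-fold higher and those of Dock5 were 1.88-fold lower, each with 1 sign in every litter. For the other 7 genes the difference between genotypes was small or turned its sign from litter to litter.

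MEFs are cells grown out of mouse embryos and kept in serum-containing medium, here without any treatment. The labels give 6 RNA extracts from 3 litters, numbered 112, 116 and 121, with 1 Lats2-/- and 1 Lats2+/+ extract per litter, all of strain C57BL/6J, and each extract carries its own clone name. Neither the age or sex of the embryos, nor the number of embryos behind an extract, nor the stretch of Lats2 that was deleted is given in the sources used here. Every two-colour array held both extracts of a litter, and the dyes were swapped within each litter, with 2 arrays each for litters 112 and 116 and 4 for litter 121.

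In the Hippo pathway, the LATS kinases phosphorylate the coactivators YAP and TAZ, which are then held in the cytoplasm or degraded. YAP and TAZ that escape this step enter the nucleus and bind TEAD transcription factors on the DNA, often close to AP-1 factors. Ankrd1, along with Ctgf and Cyr61, is among the genes most used as a readout of that activity in fibroblasts and epithelial cells, and some targets, such as the angiomotin-like genes, feed back on YAP.

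The promoters of the members show where TEAD and AP-1 motifs lie close to a start site. RefSeq windows of 300 bases (build GRCm38.p6, 250 before to 50 after the start) were at hand for 7 of the 10 members. Dock5, Fjx1 and Arhgef17 had no window and were not searched. The search covered both strands for the TEAD motif GGAATG, the AP-1 motif TGANTCA and the CArG box. The TEAD motif was in 4 of the 7 windows, against 14.7% of all 32851 windows of this length. AP-1 was in 1 of the 7 (7.81% of all windows), and the CArG box in 0 of the 7 (1.63% of all). Binding was not measured, so a match is a description of the letters only. The 250 bases before the start of Ankrd1 and of F3, the 2 members that were higher in every litter, and shorter stretches of the other 3 windows with a motif are shown 5′ to 3′ with the motifs in capitals. Capitals mark GGAATG or its reverse complement CATTCC in Ankrd1, Amotl2, Axl and Crim1, and TGANTCA in F3.
Ankrd1 (chr19:36119845-36120094, minus strand): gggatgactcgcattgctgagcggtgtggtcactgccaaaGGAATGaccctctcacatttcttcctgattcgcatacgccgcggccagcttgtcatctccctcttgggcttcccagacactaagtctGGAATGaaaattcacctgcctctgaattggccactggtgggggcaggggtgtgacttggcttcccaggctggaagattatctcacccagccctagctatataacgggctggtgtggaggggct
F3 (chr3:121723287-121723536, plus strand): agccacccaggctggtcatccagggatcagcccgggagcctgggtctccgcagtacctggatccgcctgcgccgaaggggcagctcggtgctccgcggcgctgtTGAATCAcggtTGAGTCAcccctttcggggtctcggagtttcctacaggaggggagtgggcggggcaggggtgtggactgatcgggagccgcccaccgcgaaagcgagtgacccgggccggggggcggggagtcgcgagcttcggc
Amotl2 (chr9:102717712-102717771, plus strand): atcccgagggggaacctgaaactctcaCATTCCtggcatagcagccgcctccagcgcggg
Axl (chr7:25788924-25788983, minus strand): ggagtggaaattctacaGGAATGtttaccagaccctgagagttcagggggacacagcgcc
Crim1 (chr17:78200142-78200201, plus strand): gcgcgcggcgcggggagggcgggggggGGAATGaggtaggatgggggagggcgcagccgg

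Ankrd1 was the only one of these 7 windows with the TEAD motif at more than 1 place, 210 and 123 bases before the start, and F3 held its pair of AP-1 motifs 146 and 135 bases before it.

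Median intensities of an array were 60.9 to 68.2 in green and 83.1 to 94.2 in red, and a channel had 52.9% to 61.3% of its gene probes well above background. All 18 member probes were well above background in both channels of all 8 arrays. The targeted gene, Lats2, was lower in the Lats2-/- extract of every litter at its upstream probe, with log2 ratios of -1.33, -1.05 and -0.56. At the 3 downstream probes the ratios were between -0.70 and -0.18 in litters 112 and 116, but between 0.80 and 1.17 in litter 121, where they go against the label. A probe outside the deleted stretch checks nothing, and that stretch is not known here, so the mean of each member is also given without litter 121. It was 3.93 for Ankrd1, 1.36 for F3, 0.11 for Amotl2, 0.20 for Arhgef17, 0.41 for Axl, -0.30 for Gadd45b, -0.39 for Crim1, -0.47 for Amotl1, -0.52 for Dock5 and -0.89 for Fjx1. Across all kept probes the litter ratios had little in common (Pearson's r of 0.13 for litters 112 and 116, 0.061 for 112 and 121, and -0.0013 for 116 and 121, a description across probes), while arrays of 1 litter gave r of 0.917 to 0.990. Fibroblast markers were above background in all 6 extracts for 10 of 11 genes, yet their median log2 ratio was 0.15, 2.05 and -1.13 in litters 112, 116 and 121, and their summed log2 signal was 17.93 to 19.22 in Lats2-/- and 18.51 to 19.26 in Lats2+/+ extracts. In bulk RNA, fewer cells of a type and less RNA per cell cannot be told apart, and the part of these litter differences in the values that follow was not tested.

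Log2 ratios are Lats2-/- over Lats2+/+ within a litter, averaged over its arrays, and log2 signals are normalized intensities of 1 extract. Each gene is given by its brightest kept probe, with its other probes beside it. The test was limma's moderated test of the 3 litter ratios against 0, two-sided, adjusted by Benjamini-Hochberg over the 22642 kept probes. At an adjusted p under 0.05, limma called 0 of the 10 members and 0 of all kept probes (0%). The methods' t-test on the same values also gave 0 members after adjustment. With 3 litters, an exact sign-flip test cannot give a two-sided p below 0.25. At an unadjusted limma p under 0.05, 2 members were higher (Ankrd1 and F3), against 3.56% of all kept probes, and 1 was lower (Dock5), against 3.29%. With a change of at least 2-fold as well, the same 2 members were higher (0.636% of all kept probes) and 0 were lower (0.199%). F3 passed the 2-fold mark barely, and its mean log2 ratio was 0.95 with median centring, 0.96 as the mean of its probes and 0.64 without litter 112, all under 2-fold. Ankrd1 and F3 were higher in all 3 litters, as were 15.0% of all kept probes, while Amotl1, Dock5 and Gadd45b were lower in all 3, as were 14.8%. All Lats2-/- signals lay above all Lats2+/+ signals for 1 member, Ankrd1 (3.09% of kept probes), and all lay below them for 1, Amotl1 (3.04%).

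As a group the 10 genes had no common direction. Their median log2 ratio was 0.12, against 0.006 for all kept probes, and 6 of the 10 means were above 0, as were 51.3% of all. Within litters the median was -0.28, 0.18 and 0.23 in 112, 116 and 121, with 2, 5 and 6 of the 10 genes higher in Lats2-/- cells. The median SD over litters was 0.72 on the log2 scale for the members, against 0.25 over all kept probes. The member value rests on the brightest probe of each gene, and the kept probes were not matched to it for signal. Arrays of the same litter agreed closely, with SDs of 0.026 to 0.157 for the brightest probe of each member against SDs of 0.27 to 0.99 between litters. Repeat arrays share their extracts and leave out differences between cultures.

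**Figure D1:**
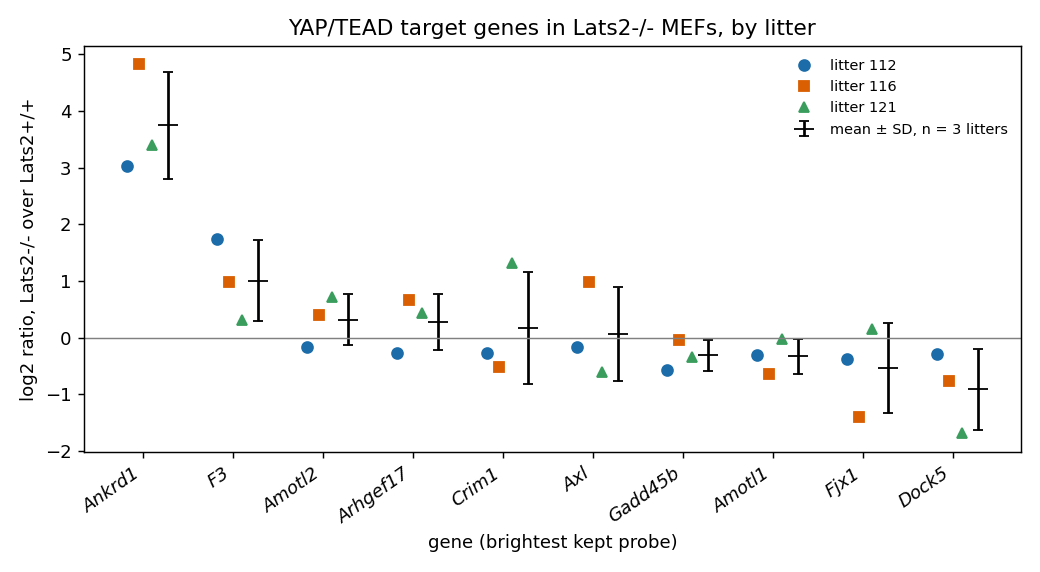
Log2 ratio of Lats2-/- over Lats2+/+ (y axis) for each of the 10 genes (x axis), with 1 symbol per litter and the mean ± SD over 3 litters beside them. Ankrd1 lies between 3.03 and 4.82 in the 3 litters, F3 is above 0 and Dock5 below 0 in each, and the litters of Axl, Crim1 and Fjx1 spread over both sides of 0.

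Ankrd1 encodes an ankyrin repeat protein of the sarcomere and nucleus, which is induced by stretch and injury in muscle and by YAP in many adherent cells. Its probe (A_52_P120803, chr19:36177463-36177522 of mm8, minus strand) gave log2 signals of 12.81 (litter 112), 11.95 (116) and 13.46 (121) in Lats2-/- extracts and of 9.78, 7.12 and 10.07 in those of their Lats2+/+ littermates. The groups did not overlap, and the lowest Lats2-/- signal, that of litter 116, stood above the highest Lats2+/+ signal, that of litter 121. The log2 ratios were 3.03, 4.82 and 3.39, from 8.18-fold in litter 112 to 28.3-fold in litter 116, and 8 of 8 arrays were higher. Litter 116 had the largest ratio with the lowest signal of each genotype. The mean was 3.75 ± 0.95 (SD, n = 3 litters), with a 95% confidence interval of 2.60 to 4.90 and an unadjusted limma p of 0.000940 (adjusted p 0.634). By its mean Ankrd1 was number 2 from the top of the 22642 kept probes, and by its p number 31. It was 3.93 over litters 112 and 116, which share slide 1, and 3.39 in litter 121 on slide 2.

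Ankrd1 is also a gene of heart and skeletal muscle, and 2 gene lists bear on the cells it came from. Of 8 cardiomyocyte markers, 2 were above background in all 6 extracts and 1, Myh6, in no channel, and the summed log2 signal of the list was 13.58 to 15.33 in Lats2-/- and 10.91 to 14.69 in Lats2+/+ extracts. Tnnt2, cardiac troponin T, had litter ratios of -0.91, 0.38 and 3.32, and its Lats2+/+ signal in litter 116 was not well above background. Myh7, a slow myosin heavy chain that missed the filter, differed by 3.07 in litter 121, while in the other 2 litters neither extract was above background. Actc1, cardiac alpha actin, was the brightest of the list and made up most of its sum, and its ratios were -0.41, 3.37 and 0.55, with the largest in litter 116, as for Ankrd1. Of the other markers, Tnni3 had 0.16, -0.33 and 0.005, Nkx2-5 had -0.09, -0.11 and 0.81, and Nppa and Myl7, which missed the filter, lay between -0.40 and 0.14. The part of these genes in the Ankrd1 ratio was not tested. Of the 7 skeletal muscle markers, 2 were above background in any extract, and that list's sum was 9.03 to 9.09 in Lats2-/- and 8.99 to 9.09 in Lats2+/+ extracts.

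The relatives of Ankrd1 did not share its values. Ankrd23, another muscle ankyrin repeat gene, had a mean log2 ratio of -0.09 ± 0.31 and Ankrd37 one of -0.58 ± 0.77, and Ankrd2 was not kept because it was above background in 0 of 6 extracts. The 5 genes whose 3 litter ratios lay nearest to those of Ankrd1 by Euclidean distance were Cd34, Kcnab1 (distance 1.36), Ptprb, Il33 and Spon2 (distance 2.30). For Cd34, Ptprb and Il33 a wild-type signal was not well above background in 1 litter, so that their distance and their place among the 5 are not fixed. Kcnab1 was placed by its brightest kept probe, with ratios of 2.09, 4.31 and 2.56. Another kept probe of Kcnab1 (A_51_P320291) gave 0.67, 0.84 and 0.71, so that its place depends on the probe. Cd34 encodes a sialomucin of progenitor, vascular and some stromal cells, Kcnab1 a potassium channel subunit, Ptprb a receptor phosphatase of vessels, Il33 a cytokine and Spon2 a matrix protein. Cd34 had ratios of 2.39, 4.94 and 3.15, and since its wild-type signal of litter 112 was not well above background, it was at least 5.18-fold higher there. Ptprb had 2.35, 3.80 and 1.90, and was at least 13.8-fold higher in litter 116. Il33 was at least 2.67-fold higher in litter 112, the litter where its wild-type signal was not above background. Of 6 endothelial markers, 4 were above background in no channel, among them Pecam1 and Cdh5. Tek was above background in 5 of 6 extracts, and Kdr was at least 1.41-fold higher in litter 121, its Lats2-/- signal there being the only one above background.

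**Figure D2:**
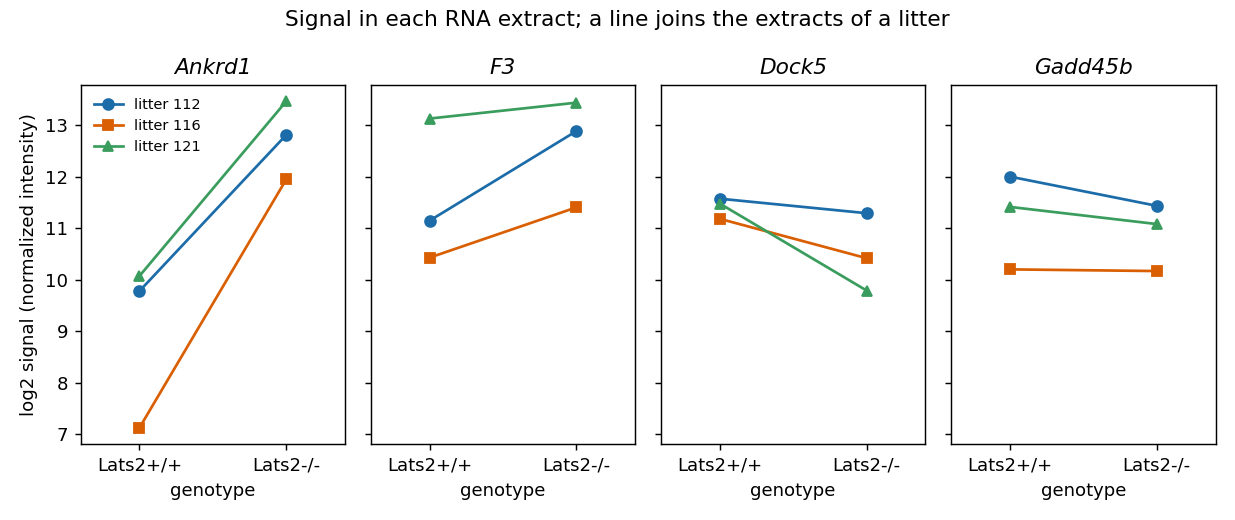
Log2 signal (normalized intensity, y axis, 1 scale for all panels) of the brightest probe of Ankrd1, F3, Dock5 and Gadd45b in the 6 extracts, by genotype (x axis), with a line joining the extracts of a litter. All lines rise for Ankrd1 and F3 and fall for Dock5, and the Gadd45b line of litter 116 is nearly flat (10.20 to 10.17).

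F3 encodes tissue factor, the membrane protein that binds factor VIIa and starts blood coagulation. Log2 signals were 12.88 (litter 112), 11.40 (116) and 13.44 (121) in Lats2-/- extracts and 11.14, 10.43 and 13.13 in Lats2+/+ extracts (A_51_P236846, chr3:121726440-121726499 of mm8, plus strand). Litters lay further apart than genotypes, so that the wild-type signal of litter 121 exceeded the Lats2-/- signals of the other litters and the groups overlapped. The log2 ratios were 1.74, 0.98 and 0.31, all 8 arrays were higher, and the mean was 1.01 ± 0.72 (SD, n = 3 litters; 95% confidence interval 0.12 to 1.89). In limma the unadjusted p was 0.0345 and the adjusted p was 0.711, and the methods' t-test gave an unadjusted p of 0.135 (adjusted p 0.842). A neighbouring probe that overlaps it (A_52_P683413, chr3:121726400-121726459) gave 1.57, 0.94 and 0.26. F3 was 1.36 on slide 1 and 0.31 on slide 2. Its mean was 0.64 without litter 112 (unadjusted limma p 0.0838, adjusted p 0.889) and 1.02 without litter 116 (unadjusted limma p 0.109, adjusted p 0.834), so that the unadjusted call needs both of these litters.

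F3 is known as an early serum-response gene, and immediate early genes were given beside it. Of 15 such genes, all kept, 8 were higher at an unadjusted limma p under 0.05, against 3.56% of all kept probes. The 8 were Fos, Junb, Egr1, Egr2, Ier2, Dusp1, Nr4a1 and Zfp36. At that p 0 were lower (3.29% of all kept probes), and 10 were higher in all 3 litters (15.0%). Those 10 include Egr4, which was kept for testing through its Lats2-/- extracts alone, and Egr3, whose wild-type signal in litter 112 was not well above background. The list's median log2 ratio was 2.66, 0.85 and 0.86 in litters 112, 116 and 121, and F3 too was highest in litter 112. Among the genes for AP-1 proteins, Fos had ratios of 5.43, 2.19 and 1.24 and Junb of 2.48, 2.17 and 1.57, whereas Jun had 0.52, -1.35 and -0.62 and Fosl1 had 0.76, -1.72 and -1.28. The part of this list in the F3 ratio was not tested. Tfpi, the inhibitor of the tissue factor complex, was higher in the same litters, by at least 17.7-fold in litter 112 and at least 3.86-fold in litter 116, where its wild-type signal was not well above background. In litter 121 its log2 ratio was 0.77, with the wild-type signal above background on 1 of 4 arrays, so that Tfpi was kept for testing through its Lats2-/- extracts alone. Factor VII itself (F7) and Tfpi2 were not above background in any of the 6 extracts.

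Dock5 encodes a guanine nucleotide exchange factor for Rac, which works with ELMO proteins in cell spreading and migration. It went the other way, and it did so with all 4 of its probes (chromosome 14, mm8, minus strand). Lats2, the targeted gene, lies on the same chromosome (A_52_P315345, chr14:56644080-56644139 of mm8). The part of this shared chromosome in the Dock5 ratio was not tested, and all 4 probes share it. The brightest (A_52_P88983, chr14:66705536-66705595) had log2 signals of 11.29 (litter 112), 10.42 (116) and 9.79 (121) in Lats2-/- extracts and of 11.57, 11.18 and 11.48 in Lats2+/+ extracts. The wild-type signals lay close together, and the Lats2-/- signal of litter 112 fell among them. Its ratios were -0.28, -0.76 and -1.69, 0 of 8 arrays were higher, and the mean was -0.91 ± 0.71 (SD, n = 3 litters; 95% confidence interval -1.79 to -0.03). In limma the unadjusted p was 0.0459 and the adjusted p 0.711.

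The other 3 Dock5 probes had means of -0.88 (A_51_P223025), -0.62 (A_51_P194181) and -0.57 (A_52_P366251), with unadjusted limma p-values of 0.0366, 0.0353 and 0.0267 and an adjusted p of 0.711 each. Litter 121 was the lowest at all 4 probes, and for the last 2 named the genotypes did not overlap. Those 2 probes were the dimmest of the gene. Their mean log2 signals were 6.93 and 6.96 in Lats2-/- and 7.55 and 7.53 in Lats2+/+ extracts. The brightest probe stood at -0.52 on slide 1 and at -1.69 on slide 2, and its unadjusted limma p was 0.0791 without litter 121 (adjusted p 0.733). Without litter 116 the mean was -0.98, with an unadjusted limma p of 0.114 (adjusted p 0.834). The methods' t-test gave an unadjusted p of 0.158 for Dock5 and an adjusted p of 0.844. Among its relatives, Dock1 had a mean log2 ratio of -0.23 ± 0.29 and Dock4 one of 0.12 ± 0.70, and Dock2 and Dock3 were above background in no channel. Of its ELMO partners, Elmo2 had 0.08 ± 0.65 and Elmo1 was above background only in wild-type extracts, on 6 of 8 arrays.

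Amotl1 and Amotl2 encode angiomotin-like scaffolds of tight junctions and actin, which bind YAP and hold it outside the nucleus. Amotl1 signals were 8.16, 8.07 and 8.14 in Lats2-/- extracts and 8.46, 8.72 and 8.17 in Lats2+/+ extracts of litters 112, 116 and 121 (A_51_P210708, listed at chr9:14292363-14292396 of mm8). The genotypes did not overlap, but in litter 121 they were only 0.03 apart and its 4 arrays spread over both signs, from -0.20 to 0.16. The mean log2 ratio was -0.33 ± 0.31 (SD, n = 3 litters; limma adjusted p 0.737). Its second probe (A_51_P454634) had a mean of -0.22 ± 0.22, and its genotypes overlapped.

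Amotl2 signals were 11.09, 10.99 and 12.38 in Lats2-/- and 11.25, 10.59 and 11.66 in Lats2+/+ extracts (A_51_P348804, chr9:102590845-102590904 of mm8). Its ratios of -0.16, 0.39 and 0.72 were negative in litter 112 and positive in the other litters, with a mean of 0.32 ± 0.45 (limma adjusted p 0.771). Amot, the founding angiomotin, was higher in all 3 litters, with 1.22, 1.18 and 0.24, and its mean of 0.88 ± 0.56 had an unadjusted limma p of 0.0267 (adjusted p 0.711).

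Axl is a receptor tyrosine kinase of the TAM group, whose ligands are Gas6 and, for its relatives, protein S (Pros1). Its signals in Lats2-/- extracts were 12.16, 12.23 and 11.47, and in Lats2+/+ extracts 12.33, 11.24 and 12.08 (A_52_P311787, chr7:25466694-25466753 of mm8). The ratios were -0.17, 0.99 and -0.61, so that litter 116 was higher on both arrays and litters 112 and 121 were lower on all of theirs. The mean of 0.07 ± 0.82 (SD, n = 3 litters; 95% confidence interval -0.94 to 1.08; limma adjusted p 0.980) thus stands for no single litter, and without litter 116 it was -0.39. Gas6 differed between litters as well, with -2.89, -1.09 and 2.17. Pros1 was higher in all of them, at 0.99 ± 0.57 with an unadjusted limma p of 0.0192 (adjusted p 0.711.) The receptor Tyro3 had ratios of both signs (-0.12 ± 0.36). Mertk was at least 1.70-fold higher in litter 112, where its wild-type signal was not well above background, and had ratios of -0.19 and 1.04 in litters 116 and 121.

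Crim1 encodes a transmembrane protein with cysteine-rich repeats that binds bone morphogenetic proteins. It had signals of 11.14, 10.77 and 13.21 in Lats2-/- and of 11.41, 11.27 and 11.90 in Lats2+/+ extracts (A_52_P46447, chr17:78281017-78281076 of mm8). The Lats2-/- extract of litter 121 stood above the other 5, whereas in litters 112 and 116 the knockout was the lower one. Its ratios were -0.27, -0.51 and 1.31 and the mean was 0.18 ± 0.99 (limma adjusted p 0.946), with -0.39 when litter 121 was left out. The second probe (A_51_P496640) gave the same order, with -0.16, -0.33 and 1.20. Crim2, a relative, differed by 0.06 ± 0.12.

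**Figure D3:**
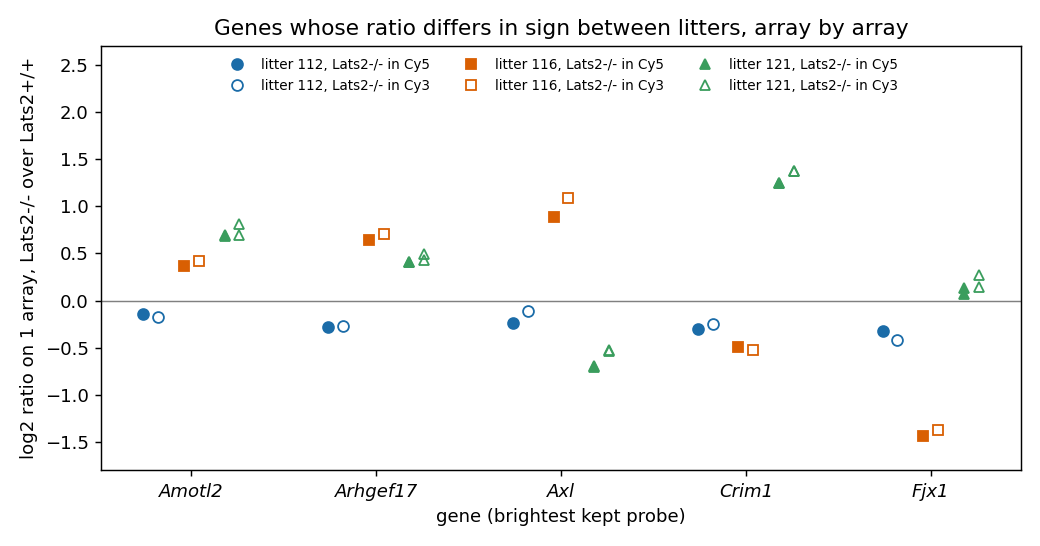
Log2 ratio of Lats2-/- over Lats2+/+ on each of the 8 arrays (y axis) for the 5 genes whose litter ratios differ in sign (x axis), with symbols by litter, filled where Lats2-/- was labelled with Cy5 and open where it was labelled with Cy3. Arrays of a litter stand together whatever the dye, and every array of Axl in litter 116 is above 0 while every array in litters 112 and 121 is below it.

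Fjx1 encodes a secreted kinase-like protein of the Fat and Dachsous pathway, which lies upstream of Hippo in flies. Signals were 6.69, 6.76 and 7.70 in Lats2-/- and 7.07, 8.17 and 7.55 in Lats2+/+ extracts (A_51_P355589, chr2:102251500-102251559 of mm8). The ratios were -0.37, -1.40 and 0.15, of which litter 116 set the mean of -0.54 ± 0.79 (limma adjusted p 0.766); without it the mean was -0.11. From the scanner software's processed signals Fjx1 had a mean of -1.16. Among Fat and Dachsous genes, Fat4 had 0.11, 0.60 and 0.50, Fat1 had -0.01, 1.12 and 0.16, and Dchs1 ran from 3.19 in litter 116 to -2.16 in litter 121. Dchs2 was above background in no channel.

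Arhgef17 encodes an exchange factor for the GTPase RhoA. Its brightest probe (A_52_P482299, chr7:100746239-100746298 of mm8) had signals of 12.49, 13.09 and 13.30 in Lats2-/- and of 12.77, 12.42 and 12.86 in Lats2+/+ extracts. The ratios were -0.28, 0.67 and 0.44 (mean 0.28 ± 0.49; limma adjusted p 0.810). A second probe of the gene (A_52_P119301, chr7:100744062-100744121) gave 0.25, -0.45 and 0.47, so that the probes disagreed in sign in litters 112 and 116 and no direction can be given for Arhgef17 there. Arhgef10 had 0.25 ± 0.23 and Arhgef10l had -0.07 ± 0.77.

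Gadd45b encodes a small stress-response protein that binds MAP kinase kinases. Its signals were 11.43, 10.17 and 11.08 in Lats2-/- and 12.00, 10.20 and 11.41 in Lats2+/+ extracts (A_52_P1197913, chr10:80334751-80334810 of mm8). The knockout was the lower one in every litter, with log2 ratios of -0.57, -0.03 and -0.33, but the groups overlapped. In litter 116 the arrays had opposite signs (0.02 and -0.09). The mean was -0.31 ± 0.27 (95% confidence interval -0.72 to 0.10), with an unadjusted limma p of 0.104 (adjusted p 0.729.) At its second probe (A_51_P500984) 0 of 8 arrays were higher, and the mean was -0.36 ± 0.28. Its paralogue Gadd45g had the opposite sign in all 3 litters (0.93, 0.34 and 0.52), with a mean of 0.60 ± 0.30, and an unadjusted limma p of 0.0211 (adjusted p 0.711.) Gadd45a had ratios of both signs, -0.14, -0.81 and 0.30.

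The wider pathway was described by the same measures. At an unadjusted limma p under 0.05, the call used for each list, 3.56% of all kept probes were higher and 3.29% lower. In the CCN family 5 of 6 genes were found on the array, and Ctgf (1.47 ± 0.26) and Cyr61 (1.35 ± 0.61) were the 2 that were higher at an unadjusted limma p under 0.05, with 0 lower. Ctgf had ratios of 1.55, 1.18 and 1.67, and Ankrd1 exceeded them in each litter. Of 11 further YAP/TEAD targets, such as Nt5e, Tgfb2 and Ptpn14, 0 were called in either direction, 6 had a mean above 0, and their median was 0.20. For the Hippo kinases and scaffolds, 2 of 19 were higher (Amot, and Frmd6 at 0.41 ± 0.26) and 1 was lower (Rassf1 at -0.35 ± 0.06), with a median of 0.06. Lats1, the paralogous kinase, had 0.15 ± 0.36.

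For YAP, TAZ and their DNA-binding partners, 8 of 10 genes were kept and 0 were called. Yap1 had a mean log2 ratio of -0.13 ± 0.16 and Wwtr1, which encodes TAZ, one of 0.05 ± 0.29. Of the TEAD genes, Tead2 was positive in all 3 litters (0.47, 0.34 and 1.45), with an unadjusted limma p of 0.0523 (adjusted p 0.711.) Among the paralogues and partners named with each member above, 20 of 26 were kept. Amot, Pros1 and Gadd45g were higher at an unadjusted limma p under 0.05, with 0 lower. Tfpi is left out of these because its wild-type signals lay at the background. Amot is also counted among the scaffolds above.

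Targets of SRF and its MRTF coactivators, which often act on the same genes as YAP, had 1 of 13 genes higher, Srf itself (0.46 ± 0.27), and 0 lower. The list's median was -0.47, 1.28 and 0.19 in litters 112, 116 and 121, and litter 116 was also the litter with the largest Ankrd1 ratio. Their part in the Ankrd1 ratio was not tested.

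Of the markers of other cell types, Krt19, a keratin of simple epithelia, was kept for testing through its Lats2-/- extracts alone, since 1 of its 3 wild-type extracts was above background. Its log2 ratio was 1.83 in litter 121 and 2.42 in litter 112, with the wild-type signal there above background on 1 of 2 arrays, and litter 116 gave a bound only, of at least 1.20-fold higher. Of the other epithelial markers, Krt14 was lower in every litter (-0.04, -0.08 and -0.07), Krt5 had a mean of 0.04, Krt8 and Krt18 were at least 1.23-fold and 1.24-fold lower in litter 116, Cdh1 in litter 121 was at least 2.08-fold higher, and Epcam was above background in no channel. Cd14, a receptor of macrophages, was lower (-0.99 ± 0.57; unadjusted limma p of 0.0192, adjusted p 0.711). In the same list Lyz2, a lysozyme, had the opposite sign in every litter (0.05, 0.95 and 3.40). The macrophage list had 3 of 7 genes above background in no channel, and its summed log2 signal was 9.72 to 11.95 in Lats2-/- and 9.84 to 11.18 in Lats2+/+ extracts. For the epithelial list these sums were 9.07 to 9.89 and 9.07 to 9.17, for the endothelial list 8.68 to 8.87 and 8.70 to 8.72, for the neural list 10.02 to 12.93 and 9.89 to 11.06, and for the hepatic and erythroid list 8.66 to 8.74 and 8.67 to 8.79. Their part in the member ratios was not tested.

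**Figure D4:**
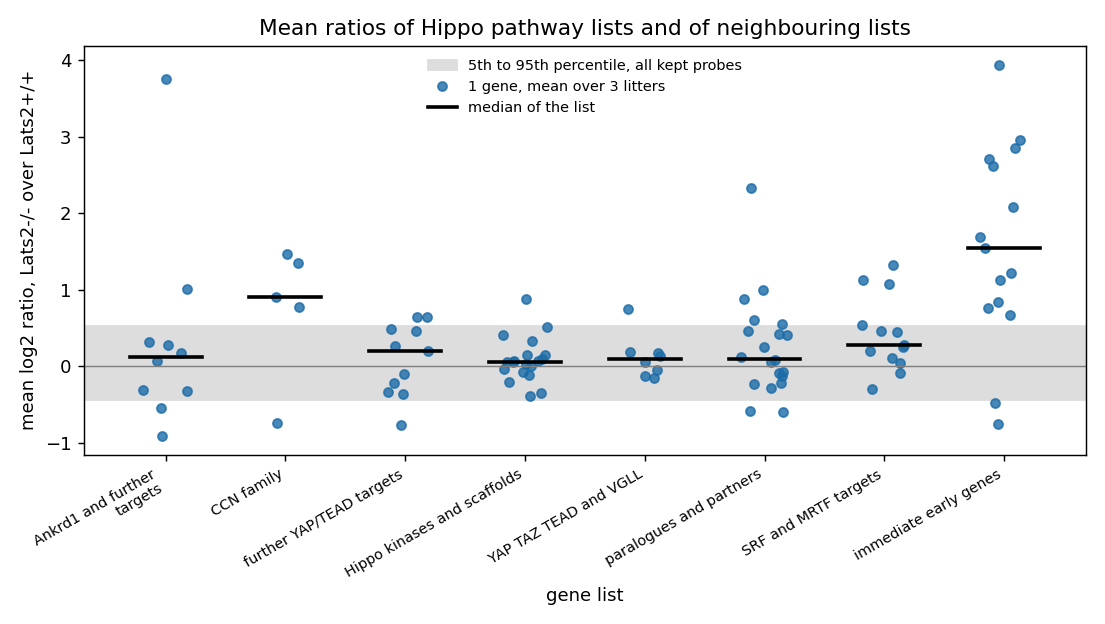
Mean log2 ratio over 3 litters (y axis) of each kept gene in 8 lists (x axis), with the median of a list as a bar and the 5th to 95th percentile of all kept probes (-0.44 to 0.53) as a grey band. Ankrd1 is the highest point of its list at 3.75, the median of that list is 0.12, and that of the immediate early genes is 1.54. The band describes single probes and is no yardstick for a median.

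Leaving out litters and changing the processing moved the 10 genes unequally. Ankrd1 kept a mean between 3.21 and 4.11 over 18 alternatives, F3 between 0.64 and 1.36 and Dock5 between -1.23 and -0.52, each with 1 sign throughout. Axl ran from -0.39 to 0.41 and Crim1 from -0.39 to 0.52.

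**Figure D5:**
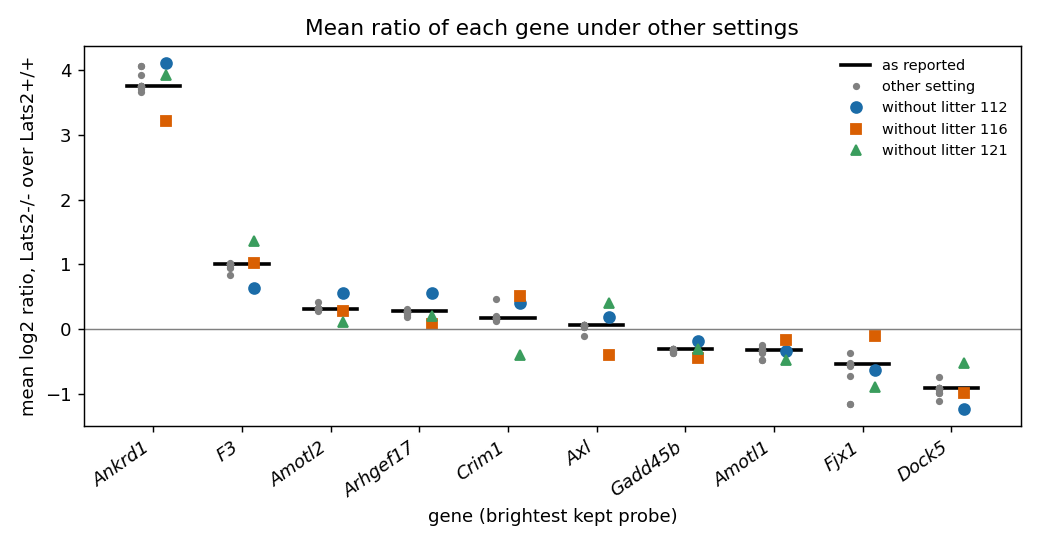
Mean log2 ratio (y axis) of each gene (x axis) as reported (bar), with each litter left out in turn (coloured symbols) and under the other settings tried (grey dots). All values of Ankrd1 lie at or above 3.21, and those of Axl and Crim1 fall on both sides of 0.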

How the data were processed

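The 10 genes and all lists were chosen with earlier results of these data known. The labels name Agilent Feature Extraction 10.5.1.1, and the file headers name version 10.7.3.1. The deposited scanner files hold, per the file headers, spot and local background intensity on a linear scale, not normalized. The deposited value table holds the authors' log10 ratio of Lats2-/- over Lats2+/+ for each array (median 0 in every column, within 0.0050 of the scanner ratio once turned), and it served as an alternative with the processed signals.

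Background correction of the mean intensities was by normexp with offset 50 (limma 3.58.1, R 4.3.3). It was followed by removal of controls and of 860 outlier-flagged gene spots, and by loess within each array. Repeat spots, then arrays of a litter, were averaged, since they hybridise the same extracts. The pairing comes from the labels, which put both extracts of a litter on 1 array, and the litter (n = 3) is the replicate. Kept probes had to pass the scanner's background flag in 2 or more of the 3 extracts of a genotype (on 2 of 2 or at least 3 of 4 arrays of the extract). Log2 signals were taken after loess and Aquantile. Litter ratios were tested with lmFit and eBayes, which was tested on simulated data. The study's own criterion, a 2-fold change at p under 0.05, was applied with limma's p, and the methods' t-test was an alternative.

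Named genes were all members with every probe, Lats2, the 5 kept genes nearest to Ankrd1 over its litter ratios, listed genes with an unadjusted p under 0.05 and 1 sign in all litters, and paralogues and partners. Other values named from the lists (Tnnt2, Myh6, Myh7, Actc1, Tnni3, Nkx2-5, Nppa, Myl7, Egr3, Egr4, Pecam1, Cdh5, Tek, Kdr, Lyz2, Krt5, Krt8, Krt14, Krt18, Cdh1, Epcam, Jun, Fosl1, Tead2, Yap1, Wwtr1, Lats1) were chosen after their values were seen. Where only 1 genotype of a litter was above background, the fold is a bound, which sets the bright signal against the higher, per array, of the probe's own signal and the lowest signal of any probe well above background. Of the gene probes, 24375 were named by RefSeq accession, 6301 by symbol and 2426 by synonym, and 8072 kept the file's name. Probe positions are those of the files (mm8), promoters are RefSeq's (GRCm38.p6), and neither was converted. Precision is limited by the number of litters.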

Additional observations from a re-analysis of the deposited data

Results flagged for a closer look

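For 5 of the 10 genes the litters differed in sign while every array of each litter had the sign of that litter. The differences were not tested, since the arrays of a litter repeat the same 2 extracts, and 70.3% of all kept probes had ratios of both signs over the 3 litters. Taken pairwise, 45.8%, 47.0% and 47.7% of kept probes had opposite signs in litters 112 and 116, 112 and 121, and 116 and 121. The log2 ratio of Crim1 in litter 121 (1.31) stood above those of litters 116 and 112 by differences of -1.82 and -1.58 (the first-named litter minus 121). Axl in litter 116 (0.99) exceeded litter 121 by 1.60, and litter 112 minus litter 116 was -1.16. Fjx1 differed by -1.56 between litters 116 and 121 and by -0.52 between litters 112 and 121. Arhgef17 differed by -0.95 between litters 112 and 116 and by -0.71 between litters 112 and 121, and its second probe had the opposite sign in litters 112 and 116. Amotl2 differed by -0.55 between litters 112 and 116 and by -0.89 between litters 112 and 121.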

How the results depend on the processing

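Direction held under all 18 alternatives for 8 of the 10 genes. Axl became -0.10 with the slide as a random block, and leaving out a litter took it from -0.39 (without 116) to 0.41 (without 121) and Crim1 from -0.39 (without 121) to 0.52 (without 116). The 3 fits over 8 arrays count repeat arrays of an extract as observations of their own, and they gave calls at an adjusted p under 0.05. With the litter as a replicate block (estimated correlation 0.87) there were 341 probes among all kept probes and 2 members, Ankrd1 (3.74) and F3. The replicate block with a dye term (correlation 0.95) called 202 and 1, Ankrd1 (3.75), and the slide block (correlation 0.40) called 717 and 2, Ankrd1 (3.66) and Dock5. The 14 other settings called 0 of all probes. Members higher at an unadjusted p under 0.05 were 1 (Ankrd1) with no replicate block and by the methods' t-test, 3 with the slide block (Ankrd1, Amotl2 and F3), and when 1 litter was left out they were 1 to 2 (1 without litter 116, and Arhgef17 in place of F3 without litter 112). The members lower were 0 with no filter on dim probes, with no replicate block and by the methods' t-test, 3 with the litter block (Dock5, Fjx1 and Gadd45b), 2 with the slide block, and when 1 litter was left out 0 to 1 (0 without litter 116 or 121). The shares of all kept probes at an unadjusted p, 3.56% higher and 3.29% lower, belong to the main fit. Those of the other settings are not given here. Where no other value is given, the cause was not tested. All member probes were above background, so depth sets no bound on them.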
